A study of Mus musculus with 4 samples.

Results

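The genes described here encode ligands of the bone morphogenetic protein (BMP) family (Bmp2, Bmp4 and Bmp7), secreted BMP antagonists (Grem1 and Nog), the inhibitory Smad protein Smad6, and the Id proteins (Id1, Id2, Id3 and Id4). They were chosen by gene symbol, with earlier results of these data known. All 10 were found among the 55487 genes of the count table. Levels were measured in wild-type mouse embryonic fibroblasts (MEFs), which are primary cells prepared from embryos and which divide for a limited time in culture. Control MEFs were left untreated. PEDF-treated MEFs were kept for 24 h with 100 ng/mL of PEDF, a protein made in and purified from mammalian cells. PEDF (pigment epithelium-derived factor) is a secreted glycoprotein of the serpin family, studied here as a candidate muscle-derived factor in cellular senescence. There were 2 control and 2 PEDF libraries of polyadenylated RNA. Experiments 1 and 2 each gave a control and a PEDF library, from MEFs of their own embryos. The sample labels give the cells as passage 2, while the study's text gives a later passage. All groups shared the wild-type genotype, the medium with serum and the culture time, and serum can itself carry BMP activity.

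BMPs are secreted signaling proteins of the TGF-β superfamily that bind pairs of type I and type II receptors on the cell surface. The receptors phosphorylate Smad1, Smad5 and Smad9, which enter the nucleus with Smad4 and activate target genes, among which Id1, Id2, Id3 and Smad6 are classical direct targets in many cell types. Gremlin 1 and noggin hold BMP ligands away from their receptors, and Smad6 acts inside the cell as a feedback inhibitor. Id proteins have a helix-loop-helix domain but no DNA-binding domain, so they capture E proteins and keep these from binding DNA. In fibroblasts, Id1 is known for repressing Ink4a and for delaying senescence.

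The libraries held 14722848 to 18144640 counts, and 22135 to 22647 genes were detected by at least 1 count. Levels of a single gene are given as CPM, which are counts scaled to a common library size (counts per 1e6) by the TMM method of edgeR, and levels of different genes are compared as TPM, which also take gene length into account. All 10 genes were among the 19384 with at least 10 counts in total, which were tested, and their own totals ran from 446 counts (Bmp7) to 13860 counts (Id3). In these bulk libraries, fewer cells of one type and less RNA in each cell cannot be told apart.

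All 9 fibroblast markers examined were present, with Col1a1 at a mean of 8653 TPM, so the label of the cells was borne out. Their summed level was 14567 and 17406 TPM in the control libraries and 13135 and 14903 TPM in the PEDF libraries. Chondrocyte markers were also found at a high level. All 5 of them were present, led by Col2a1, and their sum was 1466 to 1641 TPM in control MEFs and 1278 to 1395 TPM in PEDF-treated MEFs. The sums of the 5 osteoblast markers, led by Ibsp, were 18 to 42 TPM in control and 41 to 47 TPM in PEDF libraries. The macrophage markers, led by Lyz2, summed to 101 to 181 TPM in control and 147 to 177 TPM in PEDF libraries. Skeletal muscle markers, led by Acta1, summed to 363 to 432 TPM in control and 395 to 474 TPM in PEDF libraries. Neural markers, led by Tubb3, summed to 115 to 136 TPM and 124 to 132 TPM. Endothelial and epithelial markers, led by Kdr and Cdh1, summed to at most 7 TPM in any library. No marker of any list was at 0 in all libraries. The chondrocyte sum was lower in both PEDF libraries than in both control libraries, and its part in the results given here was not tested.

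By TPM, the order of the genes was Id3, Id1, Bmp4, Id2, Smad6, Grem1, Nog, Id4, Bmp2 and Bmp7. Id3 lay between 282 and 364 TPM in the 4 libraries and ranked 363 among the tested genes. Id1 lay between 156 and 201 TPM and Id2 between 65.5 and 85.4 TPM, whereas Id4 lay between 13.9 and 16.2 TPM. Bmp4 was the most abundant of the ligands with 87.9 to 100 TPM. It was followed by Bmp2 with 9.98 to 11.8 TPM and by Bmp7 with 4.04 to 5.50 TPM, so Bmp4 made up 84.5% to 87.6% of the summed TPM of the ligands. Smad6 lay between 39.5 and 40.5 TPM, Grem1 between 28.5 and 33.6 TPM and Nog between 14.7 and 18.1 TPM. Nog and Id4 were the neighbors in this order whose ranges overlapped, and every other pair of neighbors was separate in these 4 libraries.

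**Figure D1:**
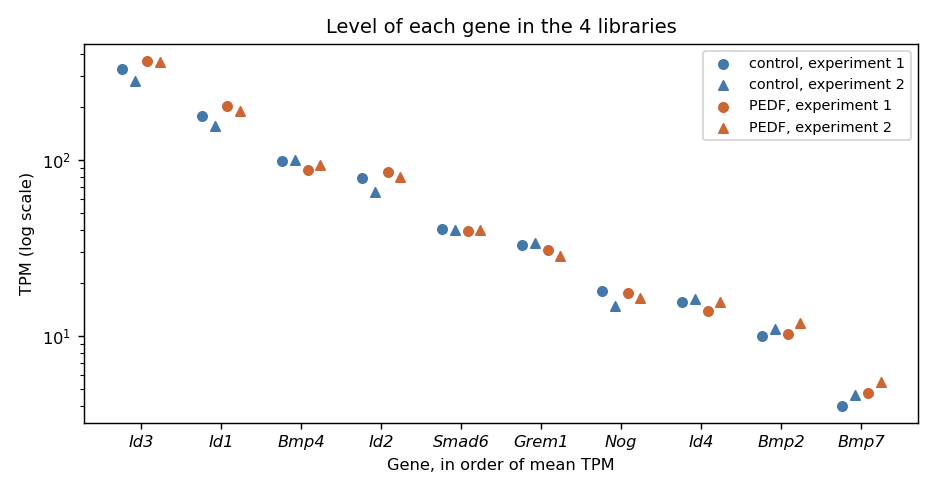
TPM of each gene (log scale) in each library, with genes in order of their mean. Circles are experiment 1 and triangles experiment 2, in blue for control and orange for PEDF. Id3 is the highest gene at 282 to 364 TPM and Bmp7 the lowest at 4.04 to 5.50 TPM, and the orange points of Id1, Id2 and Id3 lie above the blue ones.

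Without a term for the experiment, edgeR's quasi-likelihood test gave an unadjusted p under 0.05 to 3 of the 10 genes (Id1, Id2 and Id3), compared with 6.88% of all tested genes. None of the 10 had an adjusted p under 0.05, which 0.00516% of all tested genes had. DESeq2 gave 2 genes with an unadjusted p under 0.05, against 1.46% of the 26183 genes with at least 1 count, and none with an adjusted one. With limma on log2(TPM + 1) there was none by either measure, against 5.14% of all tested genes at an unadjusted p. When the MEF preparation was added to the edgeR model as a block, which sets each PEDF library against the control library of the same preparation, Id1, Id2 and Id3 had an adjusted p under 0.05 and were higher with PEDF, against 1.67% of all tested genes in that direction. No member was lower with PEDF by this test, against 2.07% of all genes. The 10 genes were chosen with earlier results of these data known, so these shares do not test the group. In this fit the median of the log2 fold changes of the 10 genes was 0.093, beside 0.0023 for all tested genes. The 10 genes have summed exon lengths of 1160 to 4148 bp. At a mean log2 CPM over 3, all genes of 1000 to 2000 bp also had a median of 0.093 in this fit. Those of 2000 to 4000 bp had 0.0461 and those of 4000 to 8000 bp had -0.0135. Both PEDF libraries lay above both control libraries in Bmp7, Id1 and Id3 (3 of 10, against 18.9% of all tested genes), and below them in Bmp4, Grem1 and Id4 (3 of 10, against 18.4%). These are CPM. In the deposited TPM, Id2 joined the former (4 of 10, against 15.9%) and Smad6 the latter (4 of 10, against 19.2%).

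Id1, Id2 and Id3 were higher with PEDF in both experiments. Id3 (ENSMUSG00000007872, plus strand of chromosome 4 from 136143497 to 136145755 in mm10) had 208 CPM in experiment 1 and 175 CPM in experiment 2 in control MEFs, a mean of 191 ± 23.7 (SD, n = 2). In PEDF-treated MEFs it had 238 and 224 CPM, a mean of 231 ± 10.0 (SD, n = 2). Both PEDF libraries were above both control libraries, and the control library of experiment 2 was the lowest of all. With the block, Id3 was 1.21-fold higher with PEDF (log2 fold change 0.27, SE (standard error) 0.05, adjusted p = 3.46e-06 in edgeR). Without the block the log2 fold change was the same size, 0.27, with a SE of 0.08 and an adjusted p of 0.695 in edgeR. DESeq2 with the block gave Id3 a SE of 0.08 and an adjusted p of 0.0195.

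Id1 (ENSMUSG00000042745, plus strand of chromosome 2 from 152736251 to 152737410) had 73.4 and 62.5 CPM in control MEFs (67.9 ± 7.73, SD, n = 2) and 85.2 and 76.6 CPM in PEDF-treated MEFs (80.9 ± 6.06, SD, n = 2). The groups did not overlap, although control 1 and PEDF 2 were close to each other. With the block the fold change of Id1 was 1.19 (log2 fold change 0.26, SE 0.06, adjusted p = 0.00275 in edgeR). Id2 (ENSMUSG00000020644, minus strand of chromosome 12 from 25093799 to 25097140) had 68.3 and 55.2 CPM in control MEFs (61.7 ± 9.29, SD, n = 2) and 75.9 and 68.3 CPM in PEDF-treated MEFs (72.1 ± 5.42, SD, n = 2). For Id2 the groups overlapped in CPM, because the control library of experiment 1 and the PEDF library of experiment 2 were at nearly the same level. In the deposited TPM they did not overlap, with 78.9 and 65.5 in control MEFs and 85.4 and 80.5 in PEDF-treated MEFs. Its fold change with the block was 1.17 (log2 fold change 0.23, SE 0.06, adjusted p = 0.0159 in edgeR). In DESeq2 with the block, neither Id1 nor Id2 was called, with unadjusted p of 0.0318 and 0.0683 and no adjusted p after its filter on the mean count. Without the block, the adjusted p in edgeR was 0.695 for Id1 and 0.712 for Id2.

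The size of these differences rested on single libraries in the fit without the block. Where 1 library is left out, its group has a single library, which is assumed to vary like the other group. Without control replicate 2, the log2 fold changes of Id1, Id2 and Id3 were 0.14, 0.08 and 0.15, and without PEDF replicate 1 they were 0.17, 0.15 and 0.22, with no unadjusted p under 0.05 in either case. Without control replicate 1 they were 0.37, 0.38 and 0.40, and Id3 then had an adjusted p of 0.0143 in edgeR.

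Within single experiments there is 1 library on each side, so the ratios have no replicate check, and their 95% intervals (exact binomial) cover counting error only. Id3 was 1.14-fold higher (1.09 to 1.20) in experiment 1 and 1.28-fold higher (1.22 to 1.34) in experiment 2, and these intervals did not overlap. Id1 was 1.16-fold higher (1.07 to 1.26) in experiment 1 and 1.23-fold higher (1.13 to 1.33) in experiment 2. Id2 was 1.11-fold higher (1.02 to 1.21) in experiment 1 and 1.24-fold higher (1.14 to 1.35) in experiment 2. All 6 of these intervals lay above a ratio of 1. The ratio of Id1 to Id3 by TPM was 0.545 and 0.552 in control and 0.553 and 0.529 in PEDF libraries, and that of Id2 to Id3 was 0.241 and 0.232 in control and 0.235 and 0.224 in PEDF libraries. Id1, Id2 and Id3 thus stood in nearly the same proportion in every library.

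Id4 (ENSMUSG00000021379, plus strand of chromosome 13 from 48261228 to 48266026) did not share this pattern. It had 21.3 and 21.5 CPM in control MEFs and 19.6 and 20.9 CPM in PEDF-treated MEFs, and its counting intervals included no change in both experiments. The log2 fold change of Id4 with the block was -0.08 (SE 0.11, adjusted p = 0.819 in edgeR). In the fit without the block it was -0.04 without PEDF replicate 1 and -0.13 without PEDF replicate 2. The comparison of Id4 with the other Id genes was chosen after the values were seen. With the block, and treating genes as independent, the log2 fold change of Id3 exceeded that of Id4 by 0.36 (95% interval 0.12 to 0.59), that of Id1 by 0.34 (0.09 to 0.58) and that of Id2 by 0.31 (0.07 to 0.56). Id4 is overlapped on the opposite strand by Gm49291 and A330033J07Rik, which had 129 and 5 counts in total against 1375 for Id4. The strand setting of the counting is not given in the sources used here.

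**Figure D2:**
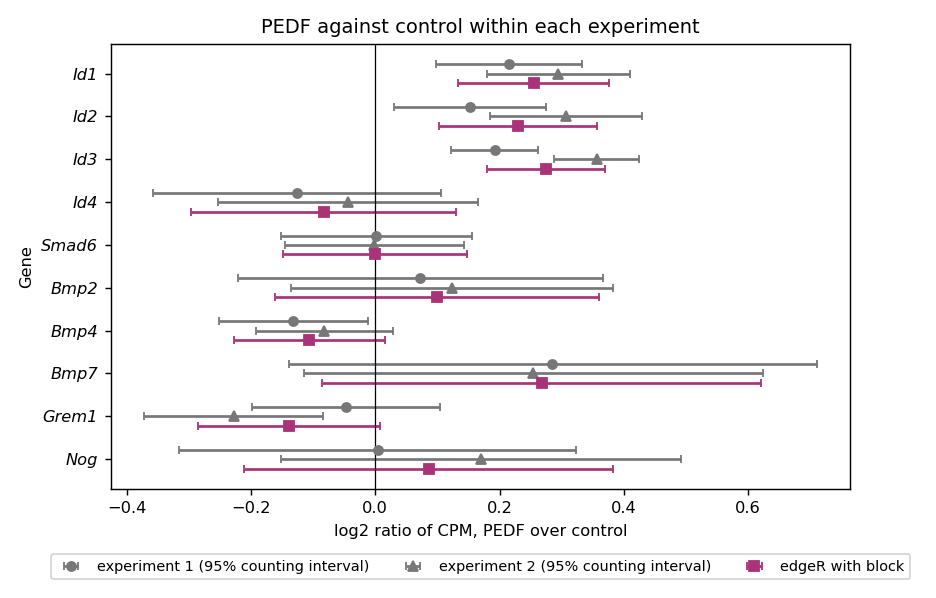
Log2 ratio of CPM between PEDF and control for each gene. Gray circles and triangles are experiments 1 and 2 with 95% counting intervals, and purple squares are the edgeR estimate with the block and its 95% interval. All intervals of Id1, Id2 and Id3 lie to the right of 0, whereas the edgeR intervals of the other 7 genes include 0.

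Sequences at the RefSeq starts of the Id genes are shown because Id2 and Id3 were higher with PEDF while Id4 was not. They are promoter windows of GRCm38.p6, from 250 bases before to 50 bases after the start in RefSeq, and 6 of the 10 genes were matched by symbol (Bmp4, Grem1, Id2, Id3, Id4 and Smad6). Capitals mark GGCGCC, a GC-rich sequence bound by Smad1 and Smad5, and GTCT, the core Smad-binding sequence, with both strands searched, so that GTCT also appears as AGAC. The Id2 window is chr12:25096043-25096342 on the minus strand, the Id3 window chr4:136143572-136143871 on the plus strand and the Id4 window chr13:48260866-48261165 on the plus strand. RefSeq and the gene coordinates given above place the starts differently, so the Id2 and Id3 windows lie inside those coordinates and the Id4 window lies wholly upstream of them.
Id2: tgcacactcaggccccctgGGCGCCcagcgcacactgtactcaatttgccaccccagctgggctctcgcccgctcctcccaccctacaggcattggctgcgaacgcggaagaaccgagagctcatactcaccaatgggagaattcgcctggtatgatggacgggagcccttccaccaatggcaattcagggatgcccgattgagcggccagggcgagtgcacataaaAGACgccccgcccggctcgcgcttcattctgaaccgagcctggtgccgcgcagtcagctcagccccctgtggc
Id3: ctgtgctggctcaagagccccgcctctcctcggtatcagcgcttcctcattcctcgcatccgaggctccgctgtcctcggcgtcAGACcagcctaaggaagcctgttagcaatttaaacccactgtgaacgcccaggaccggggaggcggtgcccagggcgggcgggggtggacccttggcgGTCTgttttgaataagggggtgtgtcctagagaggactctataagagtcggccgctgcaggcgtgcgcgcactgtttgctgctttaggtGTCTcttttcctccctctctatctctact
Id4: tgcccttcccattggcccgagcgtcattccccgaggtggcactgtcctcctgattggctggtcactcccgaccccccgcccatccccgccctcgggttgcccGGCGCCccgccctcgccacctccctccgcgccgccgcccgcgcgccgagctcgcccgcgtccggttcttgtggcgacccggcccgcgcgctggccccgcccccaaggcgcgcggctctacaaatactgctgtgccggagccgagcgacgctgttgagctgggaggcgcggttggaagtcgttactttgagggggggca
GGCGCC occurred 1 time in the Id2 window, 1 time in the Id4 window and not in the Id3 window, and 11.9% of all 32851 promoter windows of this length hold it. GTCT occurred 1 time in Id2 and 3 times in Id3 and did not occur in the Id4 window, while 88% of all windows hold it. Both were found together in the Id2 window among these sequences, and in 9.5% of all windows. In the other matched windows, Grem1 held 1 GGCGCC and 6 GTCT, and Bmp4 and Smad6 held 2 GTCT each and no GGCGCC. The windows were rich in G and C, at 63.3% for Id2, 60% for Id3 and 73.3% for Id4, compared with a median of 52.7% over all windows. These matches describe the letters only.

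The fold changes between PEDF and control followed gene length in these libraries, and Id1, Id2 and Id3 are short genes with summed exon lengths of 1160, 2438 and 1791 bp. At a mean log2 CPM over 3, the 1011 genes of 1000 to 2000 bp had log2 fold changes with a median of 0.093 in the blocked fit (quartiles 0.0209 and 0.175), and the 3013 genes of 2000 to 4000 bp had 0.0461 (quartiles -0.0269 and 0.121). Genes over 8000 bp had a median of -0.0793. Id1, Id2 and Id3 lay above the upper quartile of their length class, and so did Bmp7. Id4, with 3849 bp, lay below the lower quartile of its own class, as did Bmp4 and Grem1 in theirs. After the trend with length had been removed from each library, Id3 differed by 0.22 on the log2 scale (SE 0.05, adjusted p = 0.0025 in edgeR with the block). Id1 then had 0.19 (adjusted p = 0.0850) and Id2 had 0.18 (adjusted p = 0.153 in edgeR), so 1 of the 10 genes passed the test, against 0.707% of all genes in that direction. When the trend with GC content was removed as well, an alternative chosen after the data were seen, the log2 fold changes of Id1, Id2 and Id3 were 0.20, 0.16 and 0.23, with adjusted p of 0.0404, 0.193 and 0.000102 in edgeR. The difference between Id3 and Id4 was 0.32 (95% interval 0.09 to 0.55) after removal of the length trend.

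**Figure D3:**
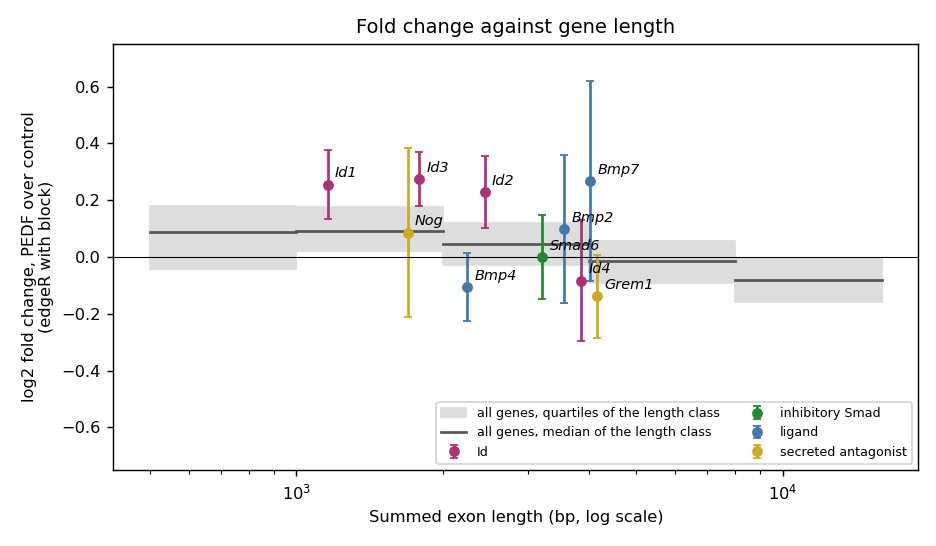
Log2 fold change of each gene in edgeR with the block (95% interval) against its summed exon length in bp (log scale), colored by role. Gray lines and boxes are the median and quartiles of each length class, over genes whose mean log2 CPM exceeded 3, and the shortest and longest classes are drawn only in part. Id1, Id2, Id3 and Bmp7 lie above the gray boxes, and Id4, Bmp4 and Grem1 lie below them. The medians of the boxes fall from 0.093 at 1000 to 2000 bp to -0.0793 above 8000 bp.

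The BMP ligands did not pass the test in either direction. Bmp4 (ENSMUSG00000021835, minus strand of chromosome 14 from 46383520 to 46390669), a ligand of mesoderm and limb development, had 78.9 and 77.9 CPM in control MEFs and 72.1 and 73.6 CPM in PEDF-treated MEFs. The control libraries were close to each other and both PEDF libraries were below them, and the log2 difference was -0.11 with the block (SE 0.06, adjusted p = 0.443 in edgeR). The counting interval of its ratio lay below 1 in experiment 1 (0.913, 0.840 to 0.992) but not in experiment 2 (0.945, 0.876 to 1.02). After removal of the length trend the log2 difference was -0.16 (95% interval -0.28 to -0.04, unadjusted p = 0.00983, adjusted p = 0.202 in edgeR). Bmp4 is overlapped on the opposite strand by Gm15222 and Gm15217, which had 183 and 50 counts in total against 4985 for Bmp4.

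Bmp2 (ENSMUSG00000027358, plus strand of chromosome 2 from 133552159 to 133562885), an inducer of bone formation, had 12.6 and 13.4 CPM in control and 13.3 and 14.6 CPM in PEDF libraries. The groups overlapped, and the 95% interval of its log2 fold change with the block ran from -0.16 to 0.36. Bmp7 (ENSMUSG00000008999, minus strand of chromosome 2 from 172868012 to 172940321), a ligand needed for kidney and eye development, had 5.76 and 6.45 CPM in control MEFs and 7.01 and 7.69 CPM in PEDF-treated MEFs. All PEDF values of Bmp7 were above the control values, but with 85 to 137 counts in a library the log2 fold change with the block, 0.27, had a wide 95% interval of -0.09 to 0.62 (adjusted p = 0.539 in edgeR). A change of the size seen in Id1 or Id3 was not detectable for Bmp7 at this depth. The summed TPM of the 3 ligands was 113 and 116 in control MEFs and 103 and 111 in PEDF-treated MEFs.

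Grem1 (ENSMUSG00000074934, minus strand of chromosome 2 from 113746164 to 113758646), which encodes the antagonist gremlin 1 of limb and mesenchymal tissue, had 48.5 and 48.2 CPM in control MEFs and 47.0 and 41.1 CPM in PEDF-treated MEFs. The PEDF library of experiment 2 was the low one, with a ratio of 0.854 to its control (0.773 to 0.944), whereas the ratio in experiment 1 was 0.968 (0.872 to 1.07). With the block the log2 fold change of Grem1 was -0.14 (SE 0.08, adjusted p = 0.388 in edgeR). Without PEDF replicate 2 it was -0.04, in the fit without the block. With the block and after removal of the length trend, Grem1 had -0.15 (95% interval -0.30 to -0.006, unadjusted p = 0.0414, adjusted p = 0.404 in edgeR). Like Bmp4, it then joined Id1, Id2 and Id3 at an unadjusted p under 0.05, as did 11.6% of all tested genes. Nog (ENSMUSG00000048616, minus strand of chromosome 11 from 89300638 to 89302332), which encodes noggin, had 10.9 and 8.63 CPM in control MEFs and 10.9 and 9.71 CPM in PEDF-treated MEFs. These groups overlapped, and the 95% interval of its log2 fold change with the block was -0.21 to 0.38. In each library Grem1 stood at 0.303 to 0.353 and Nog at 0.147 to 0.201 of the TPM of Bmp4.

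Smad6 (ENSMUSG00000036867, minus strand of chromosome 9 from 63953076 to 64022059) was the steadiest of the 10 genes by the range of its TPM. It had 46.1 and 44.4 CPM in control MEFs and 46.2 and 44.3 CPM in PEDF-treated MEFs. In CPM, libraries of the same experiment were nearly identical, with ratios of PEDF to control of 1.00 (0.900 to 1.11) in experiment 1 and 0.999 (0.904 to 1.10) in experiment 2. With the block, the 95% interval of its log2 fold change was -0.15 to 0.15, which lies below the estimates of Id1, Id2 and Id3.

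The experiments, each with MEFs from different embryos, were also compared with each other. With the treatment as a term, Id1, Id2 and Id3 were lower in experiment 2 in edgeR, by log2 differences of -0.19, -0.23 and -0.17 (adjusted p = 0.0474, 0.0152 and 0.0171 in edgeR). These were 3 of the 10 genes, against 2.19% of all tested genes in that direction. For Id2 the size was close to that of the difference with PEDF (0.23), and for Id1 and Id3 it was smaller (0.26 and 0.27 with PEDF, in the blocked fit). This difference also followed gene length, with a median of -0.0843 for genes of 1000 to 2000 bp. After removal of the length trend, the log2 differences of Id1, Id2 and Id3 were -0.14, -0.19 and -0.12, and their adjusted p in edgeR were 0.267, 0.0910 and 0.163, all over the threshold of 0.05. With DESeq2, and in edgeR with no treatment term, the number of these genes called was also 0. DESeq2 gave Id3 an adjusted p of 0.213, and gave Id1 and Id2 none after its filter on the mean count. Id4 differed by 0.05 (SE 0.11), Bmp4 by 0.005 (SE 0.06) and Nog by -0.25 (SE 0.15) between the experiments.

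The other genes of the pathway were taken from a list of 65 genes, of which 59 were tested. With the block, 1 of them was higher and 2 were lower with PEDF at an adjusted p under 0.05 in edgeR, against 1.67% and 2.07% of all tested genes, which is close to the background. Without the block, none was called by edgeR with the filter on low counts and all libraries, or by DESeq2. At an unadjusted p, edgeR then gave 3 (6.88% of all genes) and DESeq2 gave 2 (1.46% of all genes). Over the list, the log2 fold changes had a median of 0.0194 in the blocked fit. Atoh8, which encodes a helix-loop-helix transcription factor induced by BMP signaling, was the gene that was higher. Its level was 27.0 and 23.7 CPM in control MEFs and 35.2 and 33.9 CPM in PEDF-treated MEFs, with both PEDF libraries above both control libraries. With the block, Atoh8 differed by 0.45 on the log2 scale (SE 0.09, adjusted p = 0.000108 in edgeR), and after removal of the length trend 0.40 (adjusted p = 0.00374). It belongs to the 12 transcriptional targets other than Id genes and Smad6, of which it was the only one called in the blocked fit. Their median log2 fold change was 0.221 (0.178 after removal of the length trend), with 8 above 0 and 4 below 0, beside 0.0023 for all tested genes. The medians of the other roles ran from -0.0119 for ligands to 0.0447 for secreted antagonists and modulators, and no role was tested as a group. Of the 12 transcriptional targets, Hand2, a transcription factor of limb and heart, had the highest TPM. Its log2 fold change was 0.18 (95% interval -0.003 to 0.36).

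Tll1 and Bmp1, which encode tolloid-like proteases that cleave the BMP antagonist chordin and process procollagens, were the genes that were lower. Tll1 had 36.3 and 45.1 CPM in control MEFs and 29.5 and 35.5 CPM in PEDF-treated MEFs. In the blocked fit, Tll1 differed by -0.32 on the log2 scale (SE 0.08, adjusted p = 0.00603 in edgeR). After removal of the length trend its adjusted p was 0.0476 in edgeR. Bmp1, a protease and not a BMP ligand despite its name, had 371 and 471 CPM in control MEFs and 346 and 395 CPM in PEDF-treated MEFs. Its log2 fold change with the block was -0.18 (adjusted p = 0.00416), which became -0.13 (adjusted p = 0.132 in edgeR) after removal of the length trend. Both are long genes, with exon lengths of 7758 and 8870 bp. They were 2 of the 16 tested secreted antagonists and modulators, of which the most abundant was Fstl1, a secreted follistatin-like glycoprotein, with a mean of 1439 TPM and a log2 fold change of 0.07.

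None of the other 8 tested ligands, 7 receptors, 6 co-receptors, 7 Smad or Smurf genes or 3 E protein genes had an adjusted p under 0.05 with the block in edgeR, and 4 of these 31 genes (Acvr1, Bmp3, Bmpr2 and Smad7) had an unadjusted p under 0.05, a share near the 14.6% of all tested genes. Bmp3, a ligand that opposes other BMPs, had 6.23 and 5.33 CPM in control and 9.65 and 7.07 CPM in PEDF libraries, and its adjusted p was 0.0712. The most abundant receptor gene was Bmpr1a, a type I receptor, with a log2 fold change of 0.09 (95% interval -0.01 to 0.20). Smad4, the shared partner of the receptor-activated Smads, had 0.10 (-0.02 to 0.22), the co-receptor gene Eng -0.05 (-0.18 to 0.08) and the ligand gene Bmp5 0.01 (-0.20 to 0.23). Smad7, the other inhibitory Smad, is named here after its values were seen. It had 50.4 and 53.5 CPM in control MEFs and 42.2 and 48.9 CPM in PEDF-treated MEFs. Its log2 difference in the blocked fit was -0.19, with an adjusted p of 0.135 in edgeR. Tcf3, the most abundant of the E protein genes whose products Id proteins bind, had a mean of 160 TPM and a log2 fold change of 0.03 (-0.06 to 0.13).

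**Figure D4:**
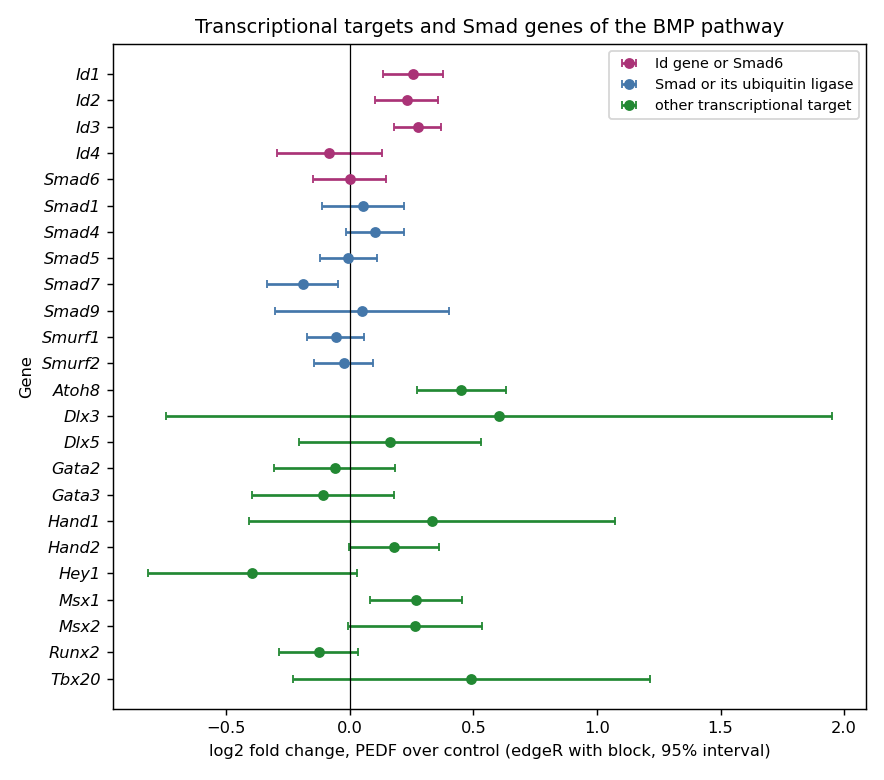
Log2 fold change between PEDF and control in edgeR with the block, with 95% intervals, for the Id genes and Smad6 (purple), the Smad and Smurf genes (blue) and the other transcriptional targets (green). Id1, Id2, Id3 and Atoh8 (0.45) are the genes of this plot with an adjusted p under 0.05, and the widest intervals are those of genes with few counts such as Dlx3, with 41 counts in total.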

How the data were processed

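The authors deposited a table of raw read counts for each gene and a table of TPM values, with 1 column for each library. Per the labels, reads from directional polyA libraries were trimmed with Trimmomatic (version 0.38), aligned to mm10 with HISAT2 (version 2.1.0) and counted with featureCounts (version 1.6.3). The annotation, the strand setting and the way TPM were made are not given in the sources used here. Groups and experiment numbers were taken from the labels, and no column was left without a sample.

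Counts of genes with at least 10 counts in total were analyzed in R (version 4.3.3) with edgeR (version 4.0.16; TMM factors 0.983 to 1.01, robust quasi-likelihood fit, 2-sided test, Benjamini-Hochberg adjustment over all tested genes, threshold 0.05), with treatment as the only term, as the study's methods give no covariate. Alternatives were a block for the experiment, RLE factors, other filters, DESeq2 (version 1.42.0), limma (version 3.58.1) on log2(TPM + 1) of the deposited TPM, and leaving out each library. The numbers pair the samples because the labels give each library its experiment and the series' design text says that the experiments used MEFs from different embryos. The log2 differences between experiments in the control pair and in the PEDF pair had r = 0.423 across 10700 genes with a mean log2 CPM above 3, and genes are not independent replicates. To remove the trend with gene length, a natural spline with 5 degrees of freedom on GENCODE M21 exon length was subtracted in each library. The same with GC content was added after the data were seen. The fits were also run on simulated data, whose changes were far larger than those of the Id genes. Detection of changes of the size seen here was therefore not checked. With 2 libraries in a group, and 1 in each preparation, few samples measure the spread. The edgeR fit therefore also draws the spread of each gene from that of other genes, and p-values of the blocked fit rest largely on this. For Id3 with the block, the SE was 0.05 in edgeR and 0.08 in DESeq2. Counting intervals leave out every other error.

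The 10 genes and the pathway and marker lists were chosen with earlier results of these data known. All 10 genes are named. Of the pathway list, the gene with the highest mean TPM in each role is named, with every gene at an unadjusted p under 0.05 without the block or an adjusted p under 0.05 with it. Of each marker list, the gene with the highest mean TPM is named.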

Additional observations from a re-analysis of the deposited data

How the results depend on the processing

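With all libraries and without the experiment as a block, none of the 10 genes passed an adjusted p of 0.05 in edgeR. The replicate block gave 3, the block with the length offset 1, the block with length and GC offsets 2 and DESeq2 with the block 1, while leaving out 1 library gave 0 to 1. The block changed no other call among the 10 genes. DESeq2 with the block gave an adjusted p to Id3 only, after its filter on the mean count. At an unadjusted p under 0.05 there were 3 genes, 5 with the block and length offset, 5 with the block and both offsets, 0 with limma, and 0 to 3 when 1 library was left out. In the pathway list, 0 genes at an adjusted p became 1 with no filter on low counts, 3 with the block, 2 with the block and length offset, 2 with the block and both offsets, and 0 to 4 when 1 library was left out, with 4 only without control replicate 1. At an unadjusted p, 3 became 6 with no filter, 10 with the block, 11 with the block and length offset, 9 with the block and both offsets, and 1 to 13 when 1 library was left out. The 3 differences between experiments became 0 with DESeq2 (which gave Id1 and Id2 no adjusted p), 0 with the length offset and 0 with no treatment term. Over all genes, the share at an unadjusted p was 6.88%, against 6.58% with no filter, 14.6% with the block, 11.6% with the block and length offset and with the block and both offsets, 5.14% with limma, and 3.02% to 12.4% when 1 library was left out. The log2 fold change of Smad6 turned to 0.0008 with no filter and ran from -0.030 to 0.030 when 1 library was left out, and that of Nog ran from -0.083 to 0.25. Of all genes, 1 had an adjusted p under 0.05, compared with 106 with no filter, 0 with filterByExpr (1187 unadjusted), 3 with DESeq2, 119 with DESeq2 and the block, 0 with limma (997 unadjusted), 726 with the block, 344 with the block and length offset, 419 with the block and both offsets, and 2 to 205 when 1 library was left out. The cause of these differences was not tested. Counts of Bmp7, Nog and Bmp2 limit what could be seen in them.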
